A study of Mus musculus with 8 samples.

Results

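The keratin genes of mouse palatal shelves were compared between R26Pax3/Pax3 embryos and wild type littermates. Members were the probe sets annotated with a single symbol made of Krt, a number from 1 to 90 and at most 1 letter, which excludes the keratin-associated proteins. They came to 59 probe sets of 47 genes, out of 34945 probe sets of 18193 genes with a single symbol on the array. Palatal shelves are paired processes of the embryonic maxilla from which the secondary palate forms. They were taken at embryonic day 14.5 from a cross of C57BL/6 with SV129, as 4 R26Pax3/Pax3 samples (replicates 1, 3, 4 and 7) and 4 wild type samples (replicates 2, 6, 8 and 11), each on 1 Affymetrix array. As the name reads, R26Pax3/Pax3 embryos carry Pax3 in both copies of the Rosa26 locus. Pax3 is a paired-box transcription factor of neural crest and muscle precursors. The labels name no Cre driver and no cell type for this allele, and do not say whether a sample was 1 embryo or a pool, so p-values reflect only how these samples vary, which may be technical.

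Keratins are the intermediate filament proteins of epithelia. A filament is built from pairs of 1 type I keratin, which are acidic, and 1 type II keratin, which are neutral or basic, and the pair in use marks the kind of epithelium. Simple epithelia pair Krt8 with Krt18, and the basal layer of stratified epithelia pairs Krt5 with Krt14. Suprabasal layers use Krt1 with Krt10 in skin and Krt4 with Krt13 in parts of the mouth. Krt6a, Krt6b, Krt16 and Krt17 are called stress keratins because wounding induces them in skin. The oral side of the palate is a stratifying epithelium with a basal layer and a covering periderm, and the nasal side forms respiratory epithelium.

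The brightest Pax3 probe set read 532 to 722 in the R26Pax3/Pax3 arrays and 142 to 176 in wild type, and the second 305 to 478 and 71.2 to 108, so both followed the labels. The third did not, at 66.0 to 113 and 82.1 to 111. Median signals lay between 43.5 and 44.9 on the 8 arrays, and correlations between arrays between 0.974 and 0.982. For Actb, the ratio of 3' to 5' probe sets ran from 1.41 to 1.47 in R26Pax3/Pax3 and from 1.39 to 1.48 in wild type. The mesenchymal markers of the shelf Osr2, Shox2, Msx1, Meox2, Barx1, Tbx22, Mn1 and Pax9 read between 234 and 1585 on every array, and the epithelial adhesion gene Epcam read between 553 and 735. Whole shelves are mixtures of cells, and in such bulk samples fewer cells of a type and less RNA per cell cannot be told apart.

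Most keratins were dim. Of the 47 genes, 13 had a brightest probe set above the median signal of the array on all 8 arrays, 30 had every probe set below it on all 8 arrays, and 4 (Krt20, Krt1, Krt13 and Krt80) lay on either side. All 3 basal keratins (Krt5, Krt14 and Krt15), 4 of 5 simple keratins (Krt7, Krt8, Krt18 and Krt19) and 2 of 4 stress keratins (Krt6a and Krt17) were among the 13. Of 10 suprabasal keratins, 2 (Krt4 and Krt10) were, and of 20 hair keratins, 1 (Krt81) was. The remaining one was Krt42, a type I keratin of nail that was put in no class. No detection calls were used, so the array median served as a working limit, and genes below it are described without a fold.

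Linear signals were compared as log2(signal + 16) with limma over the 27021 probe sets above the 40th percentile of mean signal, a signal of 25.4. Differences (R26Pax3/Pax3 minus wild type) are given on that scale and understate the changes of dim genes. The filter kept 24 keratin probe sets of 17 genes. Krt32, a hair keratin, was the 1 kept probe set with a genotype mean under that limit (24.3 in R26Pax3/Pax3 and 26.7 in wild type). At an adjusted p under 0.05 (Benjamini-Hochberg, limma), 0.0148% of all probe sets were called, 0.0074% as higher, and 0 of the 24 keratin probe sets were. At an unadjusted p under 0.05, 7 of the 24 were higher in R26Pax3/Pax3, where 2.43% of all probe sets were, and 0 were lower, where 2.44% were. These 7 read only 3 genes, as 3 were of Krt14, 3 of Krt6a and 1 of Krt17. In 3 of the 24, 1 of each of those genes, all 4 R26Pax3/Pax3 arrays lay above all 4 wild type arrays, where 1.39% of all probe sets did so. In 0 of the 24 did they lie below, where 1.34% did so. By sign alone, 15 of the 24 were higher, where 50.3% of all probe sets were. The median log2 difference was 0.05 over the 24 and 0.00 over all probe sets tested.

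**Figure D1:**
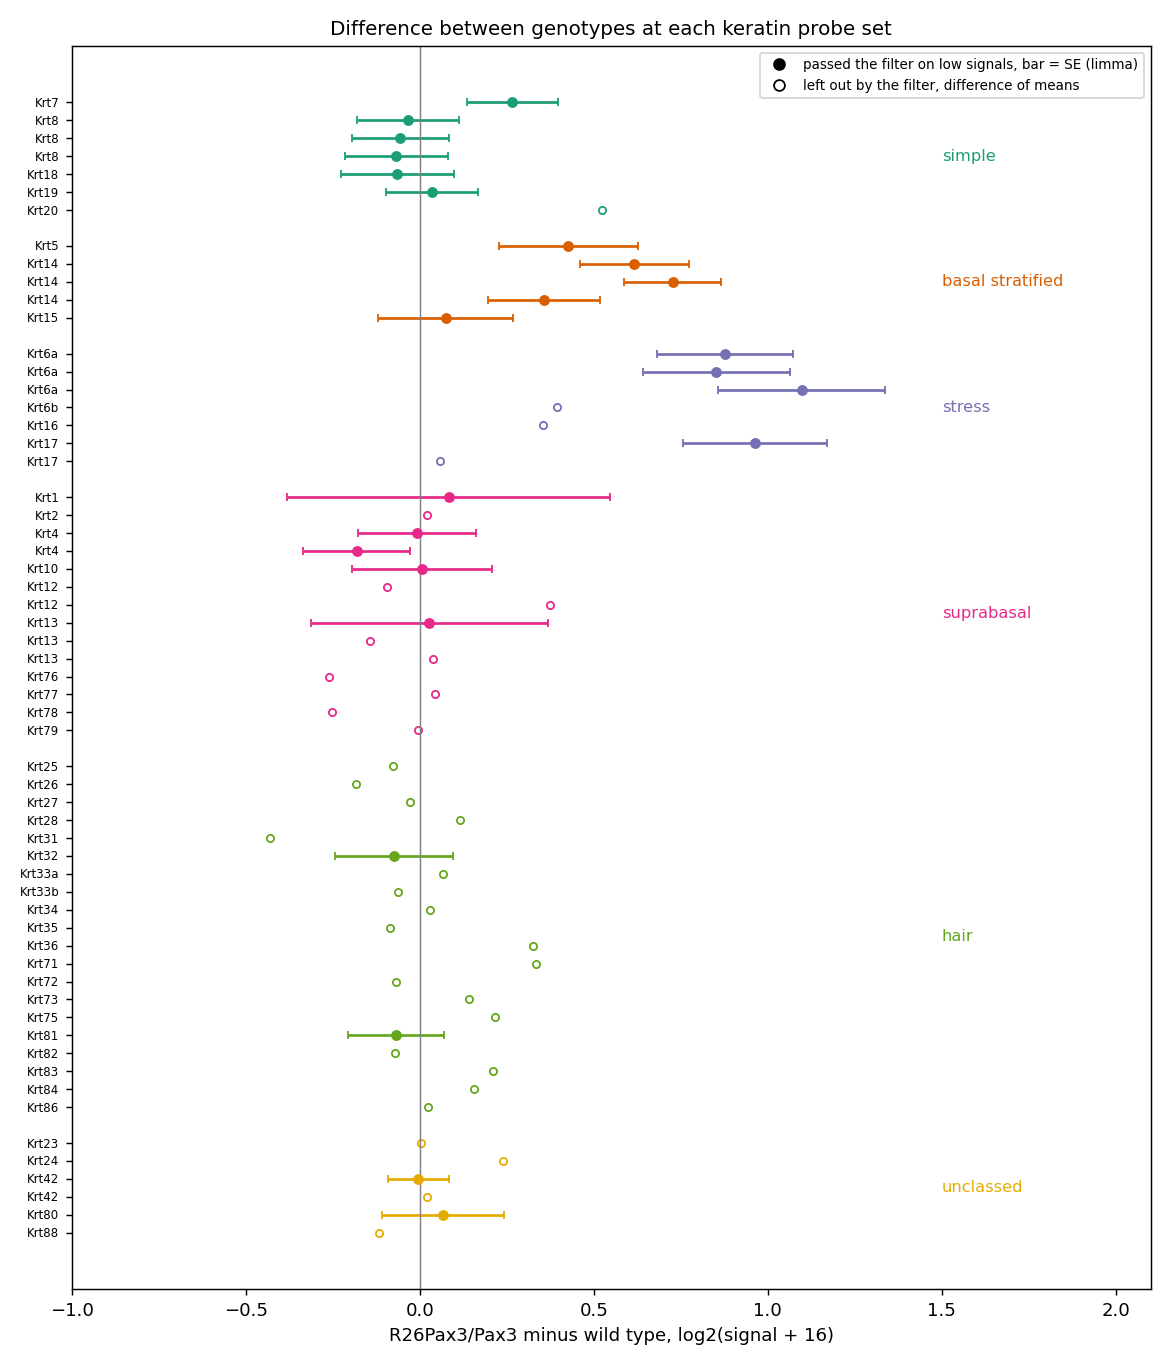
Difference between genotypes at each of the 59 keratin probe sets, as R26Pax3/Pax3 minus wild type on the log2(signal + 16) scale, grouped by class. Filled points with bars are limma estimates with SE for the 24 probe sets that passed the filter, and open points are differences of means for the others; the probe sets of Krt6a, the brighter one of Krt17 and those of Krt14 and Krt5 lie to the right of 0.

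Stress keratins had higher means in R26Pax3/Pax3, without passing the test over all probe sets. Krt17, a type I keratin of periderm, skin appendages and wounded epidermis, read 476, 538, 667 and 489 in R26Pax3/Pax3 replicates 1, 3, 4 and 7, and 354, 157, 331 and 277 in wild type replicates 2, 6, 8 and 11. Every R26Pax3/Pax3 array was above every wild type array, and wild type replicate 6 was the lowest of the 8. The means of 543 ± 87.0 and 280 ± 88.1 (SD, n = 4 each) stood in a ratio of 1.94, with a log2 difference of 0.96 (SE 0.206, limma adjusted p = 0.462). The second Krt17 probe set read 0.4 to 20.7 and was below the median of every array.

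Krt6a, the type II stress keratin, followed the same order on 3 probe sets. The brightest read 1063, 668, 985 and 1229 in R26Pax3/Pax3 replicates 1, 3, 4 and 7, and 656, 359, 522 and 578 in wild type replicates 2, 6, 8 and 11. The groups did not overlap, but R26Pax3/Pax3 replicate 3 was only just above wild type replicate 2. The means, in that order, were 986 ± 235 and 529 ± 126 (SD, n = 4 each), a ratio of 1.86 and a log2 difference of 0.88 (SE 0.196, limma adjusted p = 0.497). The others had log2 differences of 0.85 (SE 0.212) and 1.10 (SE 0.239), with overlap at R26Pax3/Pax3 replicate 3, which read 457 and 389 where wild type replicate 2 read 489 and 423. The probe set with 1.10 is of the kind whose name ends in _x_at, which marks probes that may also bind related transcripts, and the keratins of a type are close in sequence, so it could read more than Krt6a.

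The other stress keratins were dim on every array. Krt6b, a near copy of Krt6a, read 17.2, 19.6, 29.3 and 18.2 in R26Pax3/Pax3 replicates 1, 3, 4 and 7, and 12.4, 12.6, 8.9 and 14.3 in wild type replicates 2, 6, 8 and 11. Its groups did not overlap, yet all 8 values were below the array medians. Krt16, the usual type I partner of Krt6a, read 35.2, 15.7, 33.5 and 16.4 in R26Pax3/Pax3 and 23.5, 19.6, 5.6 and 16.2 in wild type, in the same order of replicates, also below the medians and with overlapping groups. Both were left out by the filter and were not tested.

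Basal keratins differed among themselves. Krt14, the type I keratin of basal cells, had higher means in R26Pax3/Pax3 on its 3 probe sets. The brightest, an _x_at probe set, read 1527, 938, 1305 and 1345 in R26Pax3/Pax3 replicates 1, 3, 4 and 7, and 1035, 673, 723 and 878 in wild type replicates 2, 6, 8 and 11. R26Pax3/Pax3 replicate 3 was below wild type replicate 2, and the other arrays did not cross. The log2 difference was 0.62 (SE 0.157, limma adjusted p = 0.602), with a ratio of 1.55.

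On the second Krt14 probe set, which is not of the _x_at kind, the groups did not overlap. It read 1060, 782, 1072 and 1061 in R26Pax3/Pax3 and 694, 448, 603 and 642 in wild type, in the same order of replicates. The means were 994 ± 141 and 597 ± 106 (SD, n = 4 each), a ratio of 1.67 and a log2 difference of 0.73 (SE 0.140). Its limma adjusted p of 0.282 was the lowest of the 24 keratin probe sets. The third Krt14 probe set read 44.7 to 103 and had a log2 difference of 0.36 (SE 0.161, limma adjusted p = 1.00).

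Krt5, the type II partner of Krt14, read 746, 585, 873 and 719 in R26Pax3/Pax3 replicates 1, 3, 4 and 7, and 755, 346, 639 and 484 in wild type replicates 2, 6, 8 and 11. Wild type replicate 2 exceeded 3 of the 4 R26Pax3/Pax3 arrays. The log2 difference was 0.43 (SE 0.201, limma adjusted p = 1.00), and without wild type replicate 6 it was 0.23. Krt15, a type I keratin of basal cells that is often highest in resting epithelium, read 1512, 894, 1363 and 1802 in R26Pax3/Pax3 and 1648, 988, 1283 and 1289 in wild type, in the same order of replicates. Its highest and lowest arrays were both R26Pax3/Pax3, and the log2 difference was 0.07 (SE 0.194, limma adjusted p = 1.00).

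**Figure D2:**
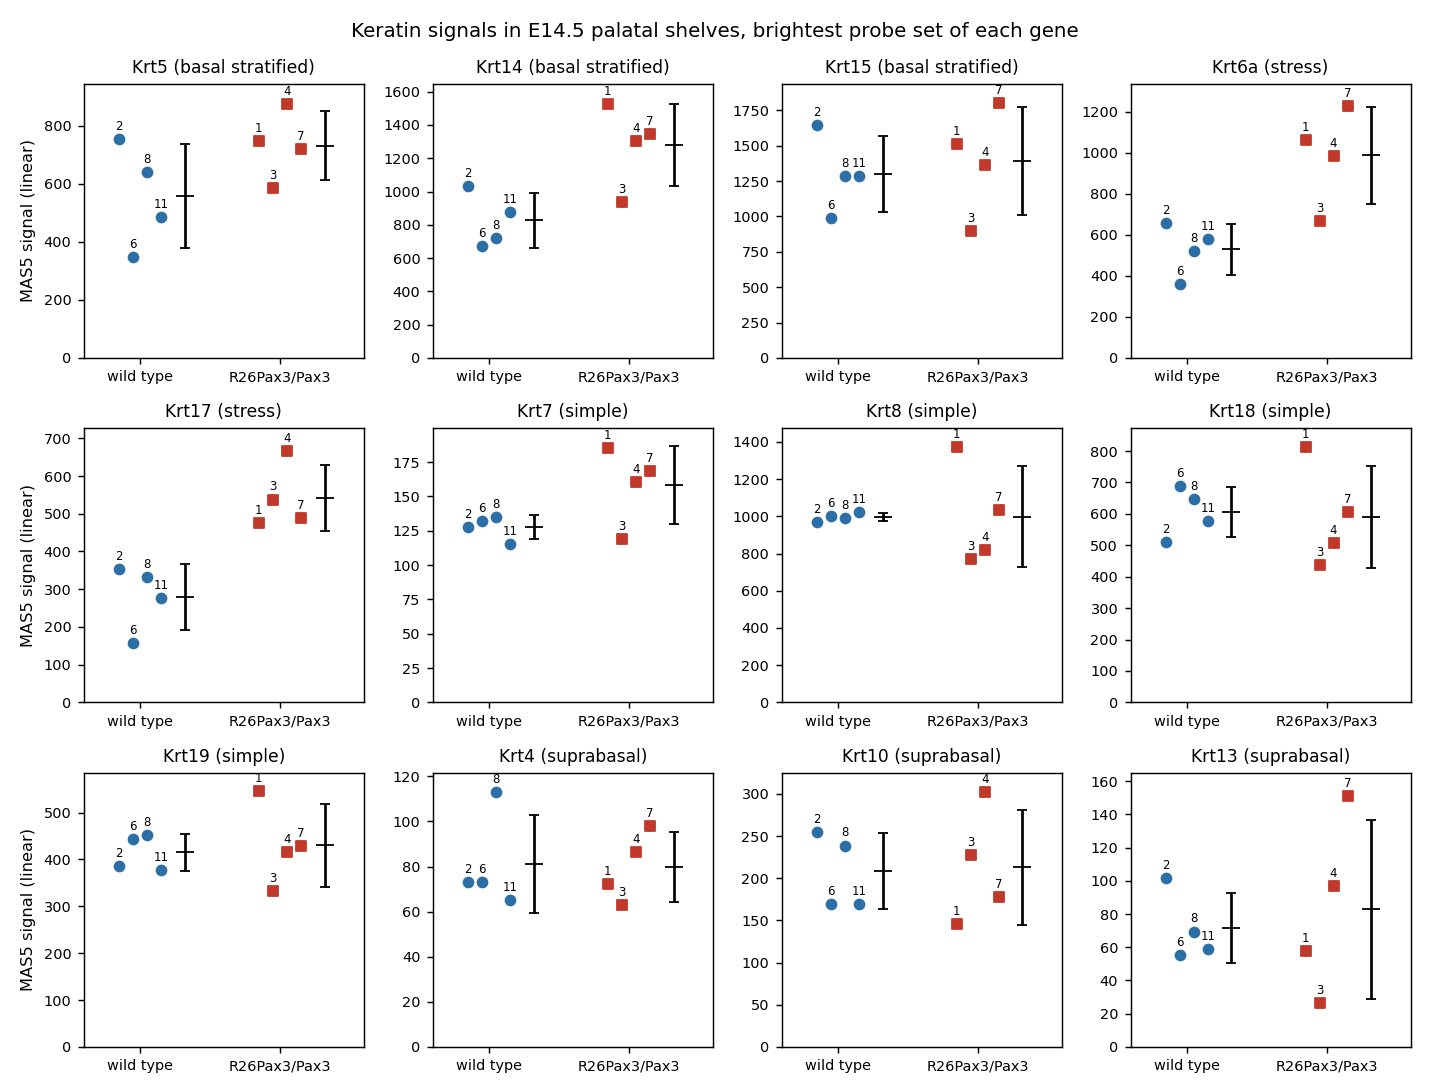
Linear MAS5 signal of the brightest probe set of 12 keratins on each array, with replicate numbers beside the points. Circles are wild type, squares R26Pax3/Pax3, and black bars the mean and SD of 4 arrays. Krt6a and Krt17 separate the genotypes, whereas the squares of Krt8, Krt18 and Krt19 lie on both sides of the circles.

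Of the simple keratins, Krt8, Krt18 and Krt19 had nearly equal means in both genotypes and larger SDs in R26Pax3/Pax3, and Krt7 had a slightly higher mean there. Krt8, the type II keratin of simple epithelia and periderm, read 1371, 769, 820 and 1035 in R26Pax3/Pax3 replicates 1, 3, 4 and 7, and 971, 1002, 991 and 1024 in wild type replicates 2, 6, 8 and 11. The 4 wild type arrays lay inside the R26Pax3/Pax3 range. The means were 999 ± 274 and 997 ± 22.3 (SD, n = 4 each), with a log2 difference of -0.03 (SE 0.147, limma adjusted p = 1.00). The further Krt8 probe sets had log2 differences of -0.06 and -0.07. The difference of the brightest turned to 0.08 without R26Pax3/Pax3 replicate 3.

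Krt18, the type I partner of Krt8, read 812, 438, 507 and 605 in R26Pax3/Pax3 and 510, 690, 647 and 577 in wild type, in the order of replicates used for Krt8. The SDs were 163 and 78.9. Its log2 difference was -0.06 (SE 0.164, limma adjusted p = 1.00), and 0.06 without R26Pax3/Pax3 replicate 3. Krt19, a type I keratin of simple and embryonic epithelia, read 547, 332, 415 and 429 in R26Pax3/Pax3 and 387, 444, 452 and 377 in wild type, with SDs of 88.5 and 38.7 and a log2 difference of 0.04 (SE 0.133, limma adjusted p = 1.00). Replicate 1 was the highest and replicate 3 the lowest of the R26Pax3/Pax3 arrays for Krt8, Krt18 and Krt19.

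Krt7, a type II keratin of ducts and glands, read 185, 119, 161 and 169 in R26Pax3/Pax3 replicates 1, 3, 4 and 7, and 128, 132, 135 and 116 in wild type replicates 2, 6, 8 and 11. Replicate 3 lay among the wild type arrays and the other R26Pax3/Pax3 arrays above them. The log2 difference was 0.27 (SE 0.130, limma adjusted p = 1.00). Krt20, a keratin of gut and urinary epithelium, read 1.1 to 45.4 and passed the array median on R26Pax3/Pax3 replicate 4 alone.

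Markers of nasal respiratory epithelium differed between arrays of a genotype, in part in the order of the simple keratins. Foxj1, the regulator of motile cilia, read 250, 105, 114 and 145 in R26Pax3/Pax3 replicates 1, 3, 4 and 7, and 142, 210, 214 and 251 in wild type replicates 2, 6, 8 and 11. Tekt1, a protein of ciliary microtubules, read 198, 53.5, 101 and 126 in R26Pax3/Pax3 and 134, 173, 175 and 168 in wild type. As for Krt8, replicate 1 was the highest and replicate 3 the lowest of the R26Pax3/Pax3 arrays for both. Within wild type, Foxj1 ranged more widely than Krt8. Bpifa1, a secreted protein of nasal epithelium, read 1138, 453, 372 and 1073 in R26Pax3/Pax3 and 281, 696, 568 and 810 in wild type, in the same order of replicates, with replicate 4 the lowest of R26Pax3/Pax3. Of the 6 listed markers, 5 were tested, of which 2 were higher and 3 lower, where 49% of all genes were higher and 51% lower. In limma 0 were called or at an unadjusted p under 0.05, where 2.68% of all genes were higher and 2.9% lower. The summed signal of the 6 was 1296 to 2647 in R26Pax3/Pax3 and 1208 to 2213 in wild type. Scgb1a1, the secretory marker, was below the median on every array. The part of these cells in the simple keratin values was not tested.

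Suprabasal keratins showed no shared difference. Krt10, the type I keratin of suprabasal skin, read 145, 228, 302 and 177 in R26Pax3/Pax3 replicates 1, 3, 4 and 7, and 255, 169, 239 and 170 in wild type replicates 2, 6, 8 and 11, with a log2 difference of 0.01 (SE 0.201, limma adjusted p = 1.00). Krt4, the type II keratin of suprabasal oral mucosa, read 72.2, 63.0, 86.5 and 98.0 in R26Pax3/Pax3 and 73.3, 73.3, 113 and 65.0 in wild type on its brighter probe set, with a log2 difference of -0.01 (SE 0.170), and its second probe set had -0.18 (SE 0.153). Krt13, the partner of Krt4, read 57.5, 26.2, 96.8 and 151 in R26Pax3/Pax3 and 102, 55.5, 69.5 and 59.2 in wild type, so that R26Pax3/Pax3 held both extremes. Its log2 difference of 0.03 (SE 0.341) was -0.28 without replicate 7 of R26Pax3/Pax3. Krt1, the partner of Krt10, read 20.4 to 130 in R26Pax3/Pax3 and 23.4 to 117 in wild type and was below the array median on 2 arrays of each genotype. The 9 probe sets below the median on all arrays, which read Krt2, Krt12, Krt76, Krt77, Krt78, Krt79 and, on 2 of them, Krt13, had signals of 0.4 to 25.5.

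Hair keratins, which form the shaft and inner sheath of hair, were mostly below the array median. In 19 of 20 probe sets, 1 for each gene, all 8 arrays were below the median, with signals of 0.4 to 37.4. Krt81, the exception, read 72.0, 68.3, 58.0 and 88.2 in R26Pax3/Pax3 replicates 1, 3, 4 and 7, and 83.2, 65.1, 72.0 and 81.7 in wild type replicates 2, 6, 8 and 11, with a log2 difference of -0.07 (SE 0.137, limma adjusted p = 1.00). The genotypes overlapped. Among keratins without a class, Krt42 read 332, 276, 302 and 300 in R26Pax3/Pax3 and 314, 295, 288 and 315 in wild type, a log2 difference of -0.00 (SE 0.0875) on an _x_at probe set, and its second probe set was below the median on every array. Krt80 read 27.6 to 49.9, and Krt23, Krt24 and Krt88 were below the median throughout.

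Averaged over the probe sets that passed the filter, the class levels are given as descriptions with no test. The stress class, with 4 probe sets, stood at a mean log2 level of 9.43 ± 0.279 in R26Pax3/Pax3 against 8.48 ± 0.426 for wild type (SD, n = 4 each), a difference of 0.95. These probe sets read only Krt6a and Krt17, most of them Krt6a. The basal class, with 5, most of them of Krt14, stood at 9.39 ± 0.195 and 8.95 ± 0.249, a difference of 0.44. Both differences had the same sign in the first and last 4 arrays deposited, at 1.06 and 0.84 for stress and 0.52 and 0.36 for basal. With only the brightest probe set of each gene that passed, they were 0.92 for stress and 0.37 for basal. Without the filter, which brings in Krt6b, Krt16 and the second Krt17 probe set, the stress difference was 0.66. The simple class differed by 0.01, the suprabasal by -0.01 and the hair class by -0.07. Suprabasal keratins differed by -0.21 in the first and 0.19 in the last 4 arrays.

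**Figure D3:**
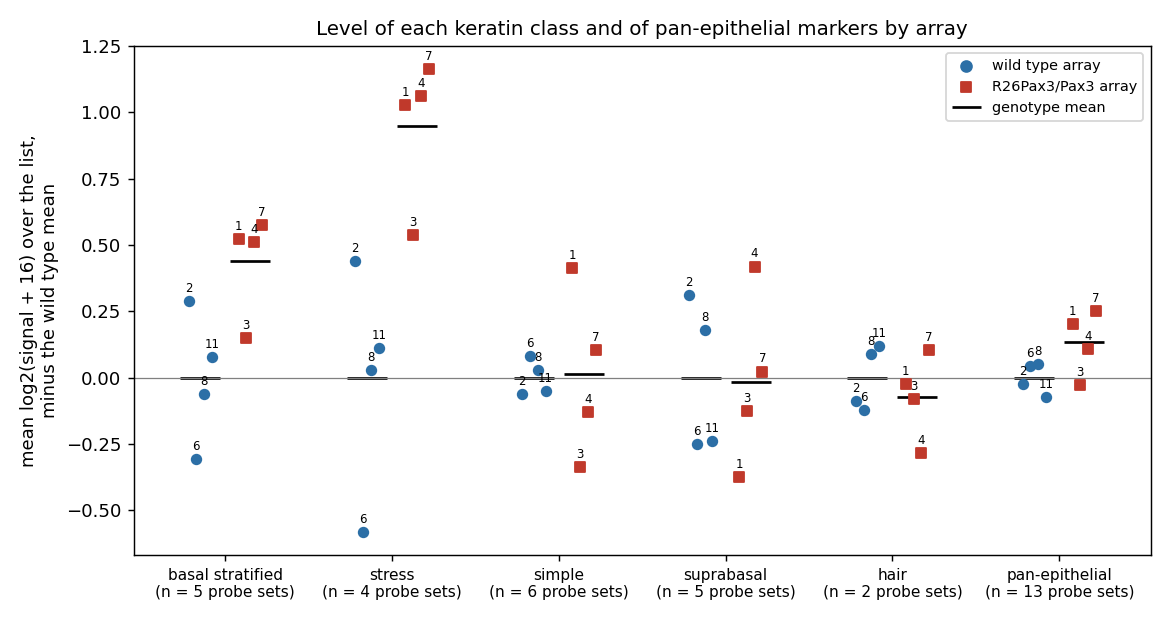
Mean log2(signal + 16) over the probe sets of each keratin class and over 13 pan-epithelial markers on each array, with the wild type mean set to 0. Circles are wild type arrays, squares R26Pax3/Pax3 arrays, numbers the replicates and black lines the genotype means; the stress class is shifted by 0.95 and the pan-epithelial markers by 0.13, and for stress no square lies below a circle.

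General markers of epithelium also had a higher mean, by less. Of 13 pan-epithelial genes, 10 were higher in R26Pax3/Pax3 and 3 lower, where 49% of all genes were higher by their brightest probe set and 51% lower. By limma 0 were called, with 3, all higher, at an unadjusted p under 0.05, where 2.68% of all genes were higher and 2.9% lower at that limit. Their median log2 difference was 0.14, and the log2 level over the list was 8.00 ± 0.122 for R26Pax3/Pax3 against 7.86 ± 0.0587 (SD, n = 4 arrays each). The level of these genes differed by 0.04 in the first 4 arrays deposited and by 0.23 in the last 4. Their summed signal was 3862 to 4774 and 3860 to 4313, and none was below the array median on all 8 arrays. The members with the smallest p were Cldn6, a tight junction claudin (log2 difference 0.48), the splicing factors Esrp2 (0.36) and Esrp1 (0.23), and Spint1, a protease inhibitor (0.24), whereas Epcam had 0.03. The mean of this list was also used as a covariate, a setting added after the data were seen. The stress difference was then 0.83 and the basal one 0.35, while the simple class moved to -0.25. The covariate itself differed between genotypes, so this fit does not separate the level of epithelial genes from genotype. In that fit Krt17 had a log2 difference of 1.12 (limma adjusted p = 0.434), Krt6a 0.66 (adjusted p = 0.948) and the brightest Krt14 probe set 0.47 (adjusted p = 0.982).

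Genes of proteins that anchor keratin filaments were higher by sign more often than lower. Of 10 linkers, 7 were higher and 3 lower (49% of all genes higher), and 0 were called by limma, with 4, all higher, at an unadjusted p under 0.05 (2.68% of all genes). Dsp, desmoplakin, which ties keratins to the desmosome, read 1940, 1605, 1949 and 2087 in R26Pax3/Pax3 replicates 1, 3, 4 and 7, and 1558, 1622, 1737 and 1272 in wild type replicates 2, 6, 8 and 11. Only replicate 3 of R26Pax3/Pax3 lay within the wild type range, and the log2 difference was 0.29 (SE 0.107, limma adjusted p = 0.968). The plakophilins Pkp1 and Pkp3 had 0.67 and 0.34, the plakoglobin gene Jup 0.37, and Plec, a linker of many cell types, -0.13. By order of deposit, Dsp differed by 0.07 in the first 4 arrays and by 0.51 in the last 4. In the same order Pkp1 had 0.78 and 0.55, Pkp3 0.40 and 0.28, Jup 0.48 and 0.26, and Plec 0.06 and -0.33. Of 6 genes of the hemidesmosome, which anchors basal keratins to the basement membrane, 6 were higher, where 49% of all genes were. Among them were the laminin chain Lama3 (0.36), Cd151 (0.19), the integrin Itga6 (0.21) and the collagen Col17a1 (0.16). By limma 0 were called, with 1, higher, at an unadjusted p under 0.05, where 2.68% of all genes were higher. Itga6 differed by 0.01 in the first 4 arrays deposited and by 0.40 in the last 4, and Cd151 by 0.09 and 0.29. Lama3 had 0.42 and 0.30, and Col17a1 0.30 and 0.03.

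Transcription factors and regulators of stratified epithelium did not share a direction. Of 10 tested, 6 were higher and 4 lower, where 49% of all genes were higher and 51% lower. By limma 0 were called, with 1, higher, at an unadjusted p under 0.05, where 2.68% of all genes were higher and 2.9% lower. Sfn, a 14-3-3 protein of stratified epithelia, read 163, 143, 163 and 148 in R26Pax3/Pax3 replicates 1, 3, 4 and 7, and 108, 102, 80.9 and 107 in wild type replicates 2, 6, 8 and 11, without overlap (log2 difference 0.56, SE 0.115, limma adjusted p = 0.368). Trp63, the master regulator of stratified epithelium, had 0.19 (SE 0.136), Ripk4 had 0.17 and Klf4 had -0.16. In the first 4 arrays deposited Trp63 had -0.05 and Ripk4 -0.10, and in the last 4 each had 0.44. In that order Sfn had 0.66 and 0.47, and Klf4 -0.17 and -0.16.

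Keratin genes lie in 2 clusters. By their order in the RefSeq gene table, 23 of the 47 genes are on chromosome 11, all type I, and 24 on chromosome 15, all type II except Krt18. On chromosome 11 the order near one end was Krt15, Krt19, Krt14, Krt16, Krt17 and Krt42. Krt15 and Krt19 had log2 differences of 0.07 and 0.04, Krt14 and Krt17 had 0.62 and 0.96, and Krt42, next to Krt17, had -0.00. The Krt42 value is from its _x_at probe set, and its other probe set was below the median on every array. On chromosome 15, Krt6b, Krt6a and Krt5 were neighbours, with 0.88 for Krt6a and 0.43 for Krt5, and their neighbours Krt6b and Krt71 were below the array median. Krt8 and Krt18, at the far end of that cluster, had -0.03 and -0.06.

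**Figure D4:**
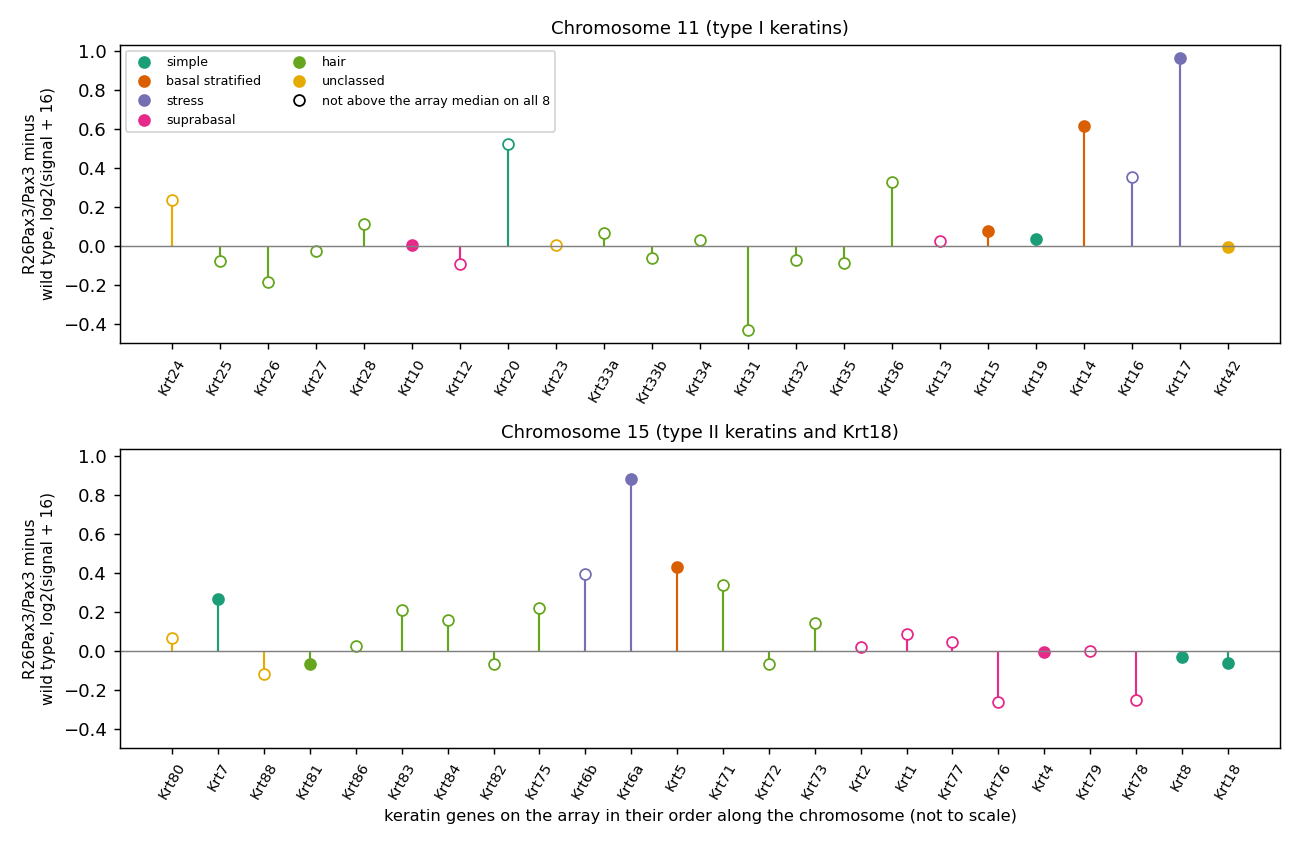
Difference between genotypes (R26Pax3/Pax3 minus wild type, log2(signal + 16), brightest probe set) for the 47 keratin genes in their order along chromosomes 11 and 15, evenly spaced and not to scale. Colours are classes, and open points mark genes not above the array median on all 8 arrays. On chromosome 11, Krt14 and Krt17 lie at 0.62 and 0.96, with the open point of Krt16 between. Krt19 and Krt42, the latter read by an _x_at probe set, lie near 0 beside them. On chromosome 15, Krt6a lies at 0.88 between Krt5 at 0.43 and the open point of Krt6b. Krt16 and Krt6b were below the median on every array and were not tested.

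Promoter sequence in RefSeq (GRCm38.p6) was given for 32 of the 47 keratin genes. It is shown for the basal keratin Krt5 and for the simple keratins Krt8, Krt18 and Krt7, whose groups overlapped, as the 250 bases before the annotated start. The windows are chr15:101712906-101713155 (minus strand), chr15:102004343-102004592 (minus strand), chr15:102027966-102028215 (plus strand) and chr15:101412153-101412402 (plus strand). The Krt14 window began 1480 bases inside the gene and is not shown. Of the 33 keratin windows, 7 began inside the gene in this way, and 26 at its annotated start, to within 1 base. Capitals mark matches on either strand to TATAAA and ATAAAA (letters of TATA boxes, the second chosen after the windows were seen, and overlapping the first), TGANTCA (AP-1), GCCNNNGGC (AP-2), GGGCGG (Sp1) and GTCACGC (the paired domain of Pax proteins), and to the palindromic site of paired homeodomains.
Krt5: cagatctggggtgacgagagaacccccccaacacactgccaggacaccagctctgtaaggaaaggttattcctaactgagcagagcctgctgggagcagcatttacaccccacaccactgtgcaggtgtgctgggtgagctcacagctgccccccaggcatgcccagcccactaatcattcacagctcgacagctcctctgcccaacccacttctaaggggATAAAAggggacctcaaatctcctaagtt
Krt8: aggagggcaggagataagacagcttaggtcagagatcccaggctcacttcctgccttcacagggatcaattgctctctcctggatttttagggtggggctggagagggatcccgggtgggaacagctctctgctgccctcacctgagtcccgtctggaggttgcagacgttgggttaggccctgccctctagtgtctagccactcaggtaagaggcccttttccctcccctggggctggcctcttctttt
Krt18: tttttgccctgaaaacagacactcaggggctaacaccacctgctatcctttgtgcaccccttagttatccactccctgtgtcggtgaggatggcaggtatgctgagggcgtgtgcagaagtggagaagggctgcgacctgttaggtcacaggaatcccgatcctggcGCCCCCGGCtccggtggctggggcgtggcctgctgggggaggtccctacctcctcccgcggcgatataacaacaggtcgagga
Krt7: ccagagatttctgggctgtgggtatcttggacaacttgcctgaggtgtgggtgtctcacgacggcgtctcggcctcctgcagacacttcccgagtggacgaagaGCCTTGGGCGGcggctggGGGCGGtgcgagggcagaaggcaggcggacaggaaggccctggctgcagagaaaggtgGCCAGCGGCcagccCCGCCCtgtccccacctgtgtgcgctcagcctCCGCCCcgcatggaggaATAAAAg
Krt5 held ATAAAA, 29 to 24 bases before its start, and Krt7 held it 7 to 2 bases before. Krt18 held 1 match to GCCNNNGGC, and Krt7 held 2 to GCCNNNGGC and 4 to GGGCGG. Krt8 held none of these motifs. Over all 32851 RefSeq windows of this length, 12.4% held TATAAA, 17.0% ATAAAA, 6.75% TGANTCA, 13.7% GCCNNNGGC, 32.7% GGGCGG, 1.78% GTCACGC and 0.463% the homeodomain site. Of the 26 keratin windows at a gene start, 14 held TATAAA, 17 ATAAAA, 1 TGANTCA, 3 GCCNNNGGC, 2 GGGCGG and 0 GTCACGC or the homeodomain site. A match is a match of letters only.

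Signals of filament partners were compared across arrays. No r was computed for genes that are not partners, so whether such values are particular to partners was not tested. Over 6 pairs of type II and type I genes, Krt8 and Krt18 had a Pearson r of 0.90 (exact permutation p = 0.00265, adjusted p = 0.0124) and a Spearman rho of 0.81 (exact permutation p = 0.0218, adjusted p = 0.0917) over 8 arrays. After the genotype means were subtracted r was 0.90, and without R26Pax3/Pax3 replicates 1 and 3, the arrays farthest from the median of Krt8, it was 0.61 over the 6 that were left (exact permutation p = 0.189). Without replicate 1 alone r was 0.81, and without replicate 3 alone 0.85 (adjusted exact permutation p = 0.0542 and 0.0417). Krt8 and Krt19 had an r of 0.83 (adjusted exact permutation p = 0.0341) and a rho of 0.60 (exact permutation p = 0.132), and r was 0.03 without the same arrays. Krt1 and Krt10 had an r of 0.91 (exact permutation p = 0.00412, adjusted p = 0.0124). Their rho was 0.76 (exact permutation p = 0.0368, adjusted p = 0.0917). Without R26Pax3/Pax3 replicate 4 and wild type replicate 2, their r was 0.81 (exact permutation p = 0.0639). Krt1 was below the array median on 2 arrays of each genotype.

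Krt5 and Krt14 had an r of 0.77 (exact permutation p = 0.0203, adjusted p = 0.0341) and a rho of 0.74 (exact permutation p = 0.0458, adjusted p = 0.0917). The permutation ignored genotype, so these p-values also count the higher means of both genes in R26Pax3/Pax3. Within genotypes r was 0.65, with no p computed, and it was 0.65 (exact permutation p = 0.168) without wild type replicates 6 and 11. Krt5 with Krt15 had an r of 0.65 (exact permutation p = 0.083) and Krt4 with Krt13 an r of 0.60 (exact permutation p = 0.124). For Krt6a and Krt17 the genotypes formed separate clusters, so no r is given. With 4 arrays in each of the first and last sets deposited, no r was computed within these sets. Krt6a with Krt16 was left out because Krt16 was below the array median.

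**Figure D5:**
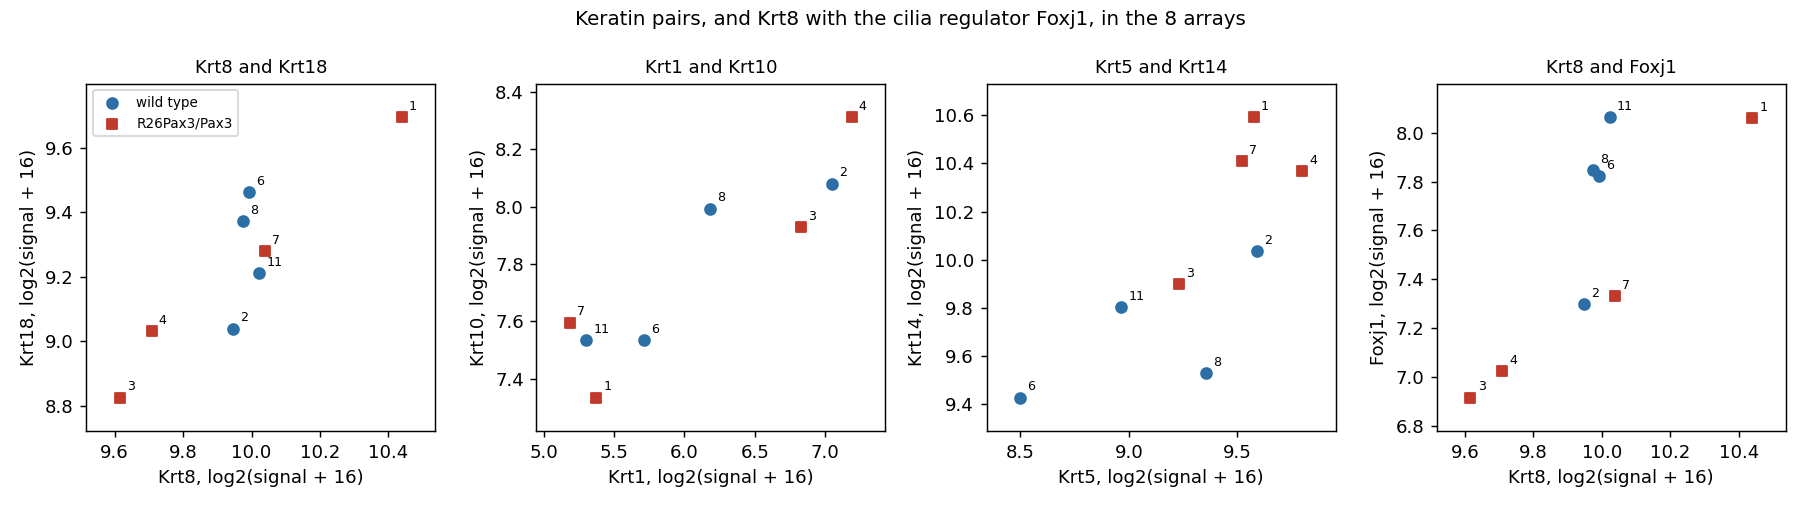
Log2(signal + 16) of Krt8 against Krt18, Krt1 against Krt10, Krt5 against Krt14 and Krt8 against Foxj1, with 1 point per array labelled by its replicate (circles wild type, squares R26Pax3/Pax3). In the Krt8 panels R26Pax3/Pax3 replicate 1 lies at the right and replicates 3 and 4 at the left of the wild type arrays.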

How the data were processed

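RNA of 8 palatal shelf samples was hybridised to 1 Affymetrix array each, from 6 µg of total RNA per the labels. The deposited values are linear signal intensities per probe set, made by the authors with MAS5, per the submitters' processing notes. The version, the genome build and the detection calls are not given in the sources used here. MAS5 scales each array to a common target, so that a change common to most genes would not show. Of 45037 probe sets left after 64 controls, 34945 had 1 gene symbol, 932 several and 9160 none, by an annotation that can be old. The keratin rule left out 1 probe set shared by Krt17 and Krt14.

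Intensities were transformed to log2(signal + 16), filtered at the 40th percentile of mean signal, and compared by genotype in limma 3.58.1 (R 4.3.3) with lmFit and trended eBayes, two-sided, without covariates. The procedure was tested on simulated data. The number of arrays limits the precision. Exact permutations, figures and motif searches used Python 3.11.15. Alternatives were pseudocounts of 1 and 64, other filters, no eBayes trend, quantile normalization, deposit order as a covariate and leaving out each array. Added after the data were seen were the pan-epithelial mean as a covariate, the removal of probe sets that may bind related transcripts, leaving out arrays for the correlations and for the muscle and neuronal lists, and leaving out promoter windows inside genes.

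Genes were named by a rule: the brightest probe set of each simple, basal and stress keratin, of other keratins above the array median on all 4 arrays of a genotype, keratins without overlap, and up to 4 members of other lists by smallest p. Some genes were named outside this rule, among them Epcam, Plec, Vim and the shelf mesenchyme markers. Not every member within it was named, and Nefm was left out. The keratins and all lists were chosen with earlier results of these data known, and the list of shelf mesenchyme markers was added last. Sequences came from RefSeq.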

Additional observations from a re-analysis of the deposited data

Results flagged for a closer look

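In 50 groups of 4 arrays (18 keratin probe sets, 6 keratin class levels and the pan-epithelial level, in each genotype), the gap between an extreme array and the next was set against the whole range of the group, with a limit of 0.829. Chance puts about 1 in 20 such groups past the limit, and 2 groups were past it. Both concern R26Pax3/Pax3 replicate 3 and share data. On the second Krt14 probe set it read 782, where the other R26Pax3/Pax3 arrays read 1060 to 1072, a gap of 0.958 of the range. The basal keratin level of the same array was 9.10 on the log2 scale, against 9.46 to 9.52 in the others, a gap of 0.847 of the range.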

How the results depend on the processing

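The count of keratin probe sets called was 0 under each alternative run, and all probe sets called numbered 4 to 9 over the fits without 1 array, with 9 without R26Pax3/Pax3 replicate 3. Of 239 values of 15 keratin probe sets under alternatives, 0 passed the threshold, 213 kept their direction and 26 turned. Krt5, Krt6a, Krt7, Krt17 and both Krt14 probe sets kept theirs, but Krt7 moved from 0.27 to 0.029 with the pan-epithelial mean as a covariate. In that fit the simple class level was -0.25, Krt19 was -0.22, Krt15 -0.24 and Krt13 -0.56. Krt13 was -0.015 with a pseudocount of 1. Without the filter on low signals the difference in stress level was 0.66, its lowest value under the alternatives. Leaving out 1 array at a time gave -0.17 to 0.16 for Krt10, -0.28 to 0.38 for Krt13, -0.062 to 0.27 for Krt15, -0.23 to 0.063 for Krt18, -0.083 to 0.15 for Krt19, -0.10 to 0.14 for Krt4, -0.048 to 0.036 for Krt42, -0.20 to 0.077 for Krt8 and -0.16 to 0.0091 for Krt81. It gave 0.75 to 1.09 for the stress and 0.34 to 0.54 for the basal level. Pearson r then ranged from 0.65 to 0.89 for Krt5 and Krt14, 0.81 to 0.94 for Krt8 and Krt18, 0.60 to 0.90 for Krt8 and Krt19, 0.88 to 0.93 for Krt1 and Krt10, and 0.45 to 0.87 for Krt4 and Krt13. Krt5 and Krt14 kept an adjusted exact permutation p under 0.05 without wild type replicate 2, 8 or 11 alone, and the others gave up to 0.168. Krt8 with Krt19 lost it without replicate 1, 3 or 7 of R26Pax3/Pax3 or 6 of wild type (up to 0.171). Krt8 with Krt18 and Krt1 with Krt10 went to 0.0542 without R26Pax3/Pax3 replicate 1, and Krt4 with Krt13 to 0.0214 without wild type replicate 8. With the mean over each gene's probe sets, r of Krt5 and Krt14 was 0.68 (adjusted exact permutation p = 0.0864). The causes were not tested. The filter at the 60th percentile left no hair keratin. No paired analysis was possible because the genotypes share no replicate numbers. Signals below the array median limit what can be said of the dim keratins.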

Other observations

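Other intermediate filament genes are given as values. Of 12 tested, 8 were higher in R26Pax3/Pax3 and 4 lower, where 49% of all genes were higher and 51% lower. By limma 0 were called, with 2, both higher, at an unadjusted p under 0.05, where 2.68% of all genes were higher and 2.9% lower. Vim, the filament protein of mesenchyme, read 5902 to 6555 in R26Pax3/Pax3 and 5519 to 7371 in wild type (log2 difference -0.05). The neuronal filament gene Nefl read 169 to 303 and 80.3 to 252 (0.74, SE 0.301, limma adjusted p = 0.995), and Prph 104 to 259 and 22.0 to 320 (1.18, SE 0.585, limma adjusted p = 1.00). Neuronal markers, with a median log2 difference of 0.80 over 7 genes, had higher means beside them and a summed signal of up to 1447 and 1647, from 829.2 and 436, and their part in the filament values was not tested. Wild type replicates 2 and 11 stood apart, with 23.3 and 22.0 for Prph and 83.8 and 80.3 for Nefl. Without them, a setting chosen after the data were seen, the median of the 7 neuronal genes was -0.14. By order of deposit, Prph differed by 0.19 in the first 4 arrays and by 2.16 in the last 4, and Nefl by 0.22 and 1.26. The nuclear lamin gene Lmnb1 read 776 to 1003 and 332 to 856 (0.54, SE 0.234).

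Genes of the cornified envelope, a protein layer of cells at the surface of skin, were mostly dim. Of 10, 7 lay below the array median on all 8 arrays, among them Ivl and Flg. Sbsn, a secreted protein of suprabasal cells, read 167, 159, 127 and 149 in R26Pax3/Pax3 replicates 1, 3, 4 and 7, and 142, 66.9, 90.3 and 135 in wild type replicates 2, 6, 8 and 11 (log2 difference 0.46, SE 0.189, limma adjusted p = 0.995). Of the remaining marker lists, 0 members were called by limma in tooth germ, glandular, osteoblast, muscle or endothelial genes, and 2 (1 higher and 1 lower), 1 (higher), 3 (lower), 0 and 0 in that order had an unadjusted p under 0.05, where 2.68% of all genes were higher and 2.9% lower. All 6 osteoblast genes tested were lower by sign, where 51% of all genes were, with a median log2 difference of -0.41. By order of deposit, Alpl differed by 0.08 in the first 4 arrays and by -0.57 in the last 4. Sp7 had -0.01 and -0.54, and Ibsp -0.06 and -0.12. Dmp1 had -1.12 and -0.44, Phex -0.52 and -0.87, and Ifitm5 -0.60 and -0.50. All 7 muscle genes tested were lower by sign, with -0.60, but R26Pax3/Pax3 replicate 7 stood apart, with 132 for Acta1, skeletal actin, where the other arrays read 451 to 1168. Without it the median was -0.07. With all 8 arrays kept and split by order of deposit, the median was -0.02 in the first 4. It was -1.29 in the last 4, which include R26Pax3/Pax3 replicate 7. The 6 endothelial genes had a median of 0.01. In the tooth germ list, Ambn, an enamel matrix gene, read 50.4 to 85.2 in R26Pax3/Pax3 and 97.1 to 120 in wild type without overlap (log2 difference -0.72, SE 0.151, limma adjusted p = 0.403). Sostdc1, a secreted antagonist in the same list, went the other way, with means of 1351 ± 237 in R26Pax3/Pax3 and 784 ± 307 (SD, n = 4 each) and overlapping groups (log2 difference 0.83, SE 0.212, limma adjusted p = 0.602). In the glandular list, 3 of 4 genes were below the median on every array, and Elf5 read 83.6 to 98.7 and 50.6 to 82.8, with a log2 difference of 0.41 (limma adjusted p = 0.918).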
